A study of Mus musculus with 2 samples.

Results

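Steroid dehydrogenases and reductases of the liver interconvert hydroxyl and keto groups on steroids or reduce their double bonds, and thereby activate or inactivate androgens, estrogens, glucocorticoids and bile acid precursors. The 10 genes described here are Hsd3b5, Hsd3b2, Hsd3b3 and Hsd3b7 of the 3β-hydroxysteroid dehydrogenase family, Hsd17b2, Hsd17b6 and Hsd17b13 of the 17β-hydroxysteroid dehydrogenases, Hsd11b1, the aldo-keto reductase gene Akr1c6 and the 5α-reductase gene Srd5a1. They were chosen by function, and around Hsd3b5, whose difference between the 2 arrays of the study was the largest of all genes. That same difference is the only measurement here, so it is given as a description. A probe set with exactly 1 gene symbol was listed for 9 of the 10 genes, out of 22180 genes in all, and each of the 9 had 1 such probe set. Srd5a1 had none in the annotation used here and has no value below.

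The study compared livers of E4bp4-LKO mice with livers of wild-type (WT) mice. Male mice of both genotypes were given a high-fat diet from the age of 2 months for 12 weeks, and RNA of several mice was pooled, so that each genotype was measured on 1 Affymetrix whole-transcript array. The labels describe the E4bp4-LKO mice as E4bp4-deficient. The sources used here do not say what LKO stands for, in which cells the gene was removed, how many mice made up a pool or when livers were taken. With 1 array for each genotype no replicate error, test or p-value can be had, and every difference describes these 2 pools. E4BP4, encoded by Nfil3, is a basic leucine zipper repressor that binds the D-box element also used by the activators DBP, TEF and HLF. Nfil3 was at 4.47 on the E4bp4-LKO array and at 5.94 on the WT array (log2 intensity), a difference of -1.47.

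Many liver steroid enzymes of the mouse are expressed at different levels in males and females, a pattern set by the timing of growth hormone pulses. Hsd3b5 is a textbook male-specific liver gene, and its protein, unlike the dehydrogenase and isomerase enzymes of the same family that make hormones in adrenal gland and gonads, acts as a reductase that inactivates keto steroids. Hsd11b1 regenerates active corticosterone from its inert keto form, Hsd3b7 acts early in bile acid synthesis, and Hsd17b13 is a protein of the lipid droplet surface.

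Hsd3b5, Hsd3b2 and Hsd3b3 lie next to one another on chromosome 3 in the GRCm38.p6 annotation, and all were higher on the E4bp4-LKO array. Their upstream sequences are therefore shown, as the 250 bases before the annotated start, 5′ to 3′ on the minus strand, from RefSeq (build GRCm38.p6). The regions are chr3:98645535-98645784 for Hsd3b5, chr3:98763129-98763378 for Hsd3b3 (the first of its 2 annotated starts in the table) and chr3:98724544-98724793 for Hsd3b2. Capitals mark, in the Hsd3b5 and Hsd3b3 sequences, the longest run of bases that these promoters have in common. In the Hsd3b2 sequence capitals mark AGAACA, which is only a part of a full steroid receptor element.
Hsd3b5: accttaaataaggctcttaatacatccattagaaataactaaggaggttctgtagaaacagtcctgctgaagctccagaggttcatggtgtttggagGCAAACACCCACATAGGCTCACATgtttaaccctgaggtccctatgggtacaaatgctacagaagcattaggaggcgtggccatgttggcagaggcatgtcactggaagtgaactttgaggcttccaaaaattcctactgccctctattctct
Hsd3b3: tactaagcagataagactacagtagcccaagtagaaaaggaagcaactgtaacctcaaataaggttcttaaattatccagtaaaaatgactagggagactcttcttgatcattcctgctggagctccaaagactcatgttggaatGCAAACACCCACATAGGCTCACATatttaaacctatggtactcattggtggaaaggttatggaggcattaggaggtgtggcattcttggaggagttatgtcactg
Hsd3b2: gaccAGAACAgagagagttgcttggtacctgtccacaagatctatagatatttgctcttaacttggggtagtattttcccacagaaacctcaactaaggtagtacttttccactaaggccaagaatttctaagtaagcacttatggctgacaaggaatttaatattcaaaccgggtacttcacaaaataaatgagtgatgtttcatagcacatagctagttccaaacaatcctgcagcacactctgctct
The shared run of Hsd3b5 and Hsd3b3 is 24 bases long and begins 153 bases before the start of Hsd3b5 and 105 bases before that of Hsd3b3. Over windows of 300 bases, which include 50 bases after the start, the local alignment of these promoters covered 252 columns with 75.8% identity. Hsd3b5 and Hsd3b2 aligned over 81 columns with 75.3% identity, and their longest common run of 19 bases began at base 23 of the Hsd3b5 transcript and base 32 of the Hsd3b2 transcript. Hsd3b2 and Hsd3b3 aligned over 33 columns with 87.9% identity and had a common run of 16 bases. The 33 other pairs among the 9 genes with a promoter in the table aligned over 8 to 30 columns and had common runs of 7 to 10 bases. Hsd17b2 was not in that table.

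The D-box elements TTATGTAA and TTACGTAA were searched on both strands of the 250 bases before each start. Neither occurred in any of the 11 windows of the 9 genes, against 0.819% and 0.113% of all 32851 promoter windows. The STAT5 element TTCNNNGAA occurred upstream of Hsd3b7, 21 bases before its start, and in 7.02% of all windows. AGAACA, or its reverse complement TGTTCT, occurred upstream of Hsd3b2, 246 bases before its start, and in 16.1% of all windows. These searches describe letters in short windows, and distal elements were not examined.

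Hsd3b5 was at 8.45 on the E4bp4-LKO array and at 3.92 on the WT array, a log2 difference of 4.53. The WT value lay below the floor of 4.20, the median over all genes of the mean of both arrays, which serves here as the mark under which a gene is called dim. The ratio of the intensities was 23.0, and the E4bp4-LKO intensity was 19.0 times the floor. Where the WT value lies so low the size of a difference is uncertain. With the probe set shared with Hsd3b4 and Gm10681, listed under 2 identifiers with identical values, averaged in, the difference was 2.53, or 3.03 with that pair counted once. Of the 9 genes on both arrays, Hsd3b5 alone had a value under the floor, as the plot of their levels shows.

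**Figure D1:**
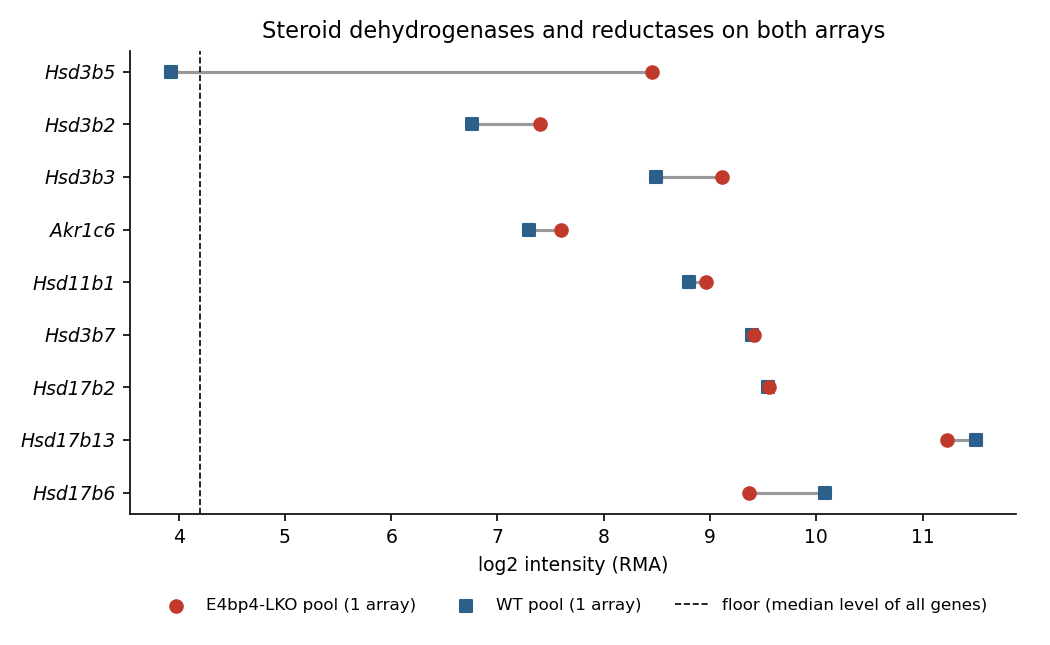
Log2 intensity (horizontal axis) of the 9 measured steroid dehydrogenase and reductase genes on the E4bp4-LKO array (red circles) and the WT array (blue squares), 1 array of pooled RNA each, joined by a grey line and ordered by their difference. The dashed line is the floor of 4.20. Hsd3b5 has the widest gap, at 8.45 on the E4bp4-LKO array and 3.92 on the WT array, and Hsd17b6 and Hsd17b13 are the genes whose E4bp4-LKO value lies to the left of the WT value.

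Of the 9 genes, 3 (Hsd3b5, Hsd3b2 and Hsd3b3) passed 1.5-fold upward on the E4bp4-LKO array and 1 (Hsd17b6) passed it downward. All 9 had a mean above the floor, Hsd3b5 only through its E4bp4-LKO value. Among the 11090 genes above the floor 1.51% were higher and 2.06% lower by as much, 3.57% together. Since the genes were chosen with this difference in view, nothing is read from that contrast of shares. The median difference of the 9 was 0.16, against -0.02 for all genes above the floor. Ranked by difference from the highest, Hsd3b5 was number 1, Hsd3b2 number 127 and Hsd3b3 number 140 of these genes, and Hsd17b6 was number 138 from the lowest. The central 95% of them lay between -0.54 and 0.49, and Hsd3b7, Hsd17b2, Hsd11b1, Akr1c6 and Hsd17b13 fell inside this range.

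**Figure D2:**
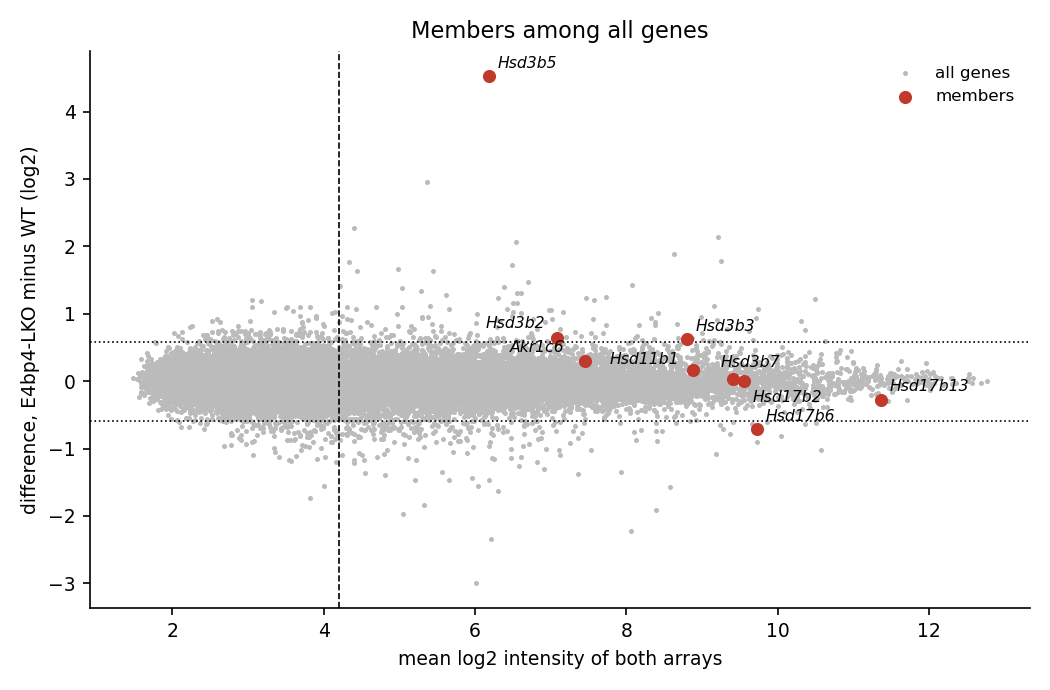
Difference, E4bp4-LKO minus WT (vertical axis, log2), against the mean log2 intensity of both arrays (horizontal axis) for all 22180 genes (grey) and the 9 measured steroid enzyme genes (red, named). Dotted lines mark 1.5-fold in either direction and the dashed line the floor of 4.20. Hsd3b5 at 4.53 is above every other gene, Hsd3b2, Hsd3b3 and Hsd17b6 lie just past the dotted lines, and the other 5 lie between them.

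Hsd3b2, which encodes a 3β-hydroxysteroid dehydrogenase and isomerase, was at 7.40 on the E4bp4-LKO array and 6.76 on the WT array, a difference of 0.64 (1.56-fold). Hsd3b3, another dehydrogenase and isomerase gene of the same cluster, was at 9.11 on the E4bp4-LKO array and 8.49 on the WT array, a difference of 0.62 (1.54-fold). Both values of each gene were well above the floor. A further neighbour of like name, Hsd3b6, differed by 0.44, but lay below the floor at 2.44 on the E4bp4-LKO array and 2.00 on the WT array. Hsd3b1, the form of steroid-making glands, was below the floor too, at 2.20 on the E4bp4-LKO array and 2.16 on the WT array. Coding sequences of this family are alike and the positions of the array's probes were not used here. Part of one gene's signal may come from another, so the values of Hsd3b2 and Hsd3b3 are uncertain one by one.

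Hsd3b7, which converts hydroxylated cholesterol to the keto intermediate of bile acid synthesis, was at 9.42 on the E4bp4-LKO array and at 9.39 on the WT array. It lies on chromosome 7, and its difference was 0.03. The family list, chosen with earlier results of these data known, also held Nsdhl, a cholesterol synthesis enzyme (10.49 on the E4bp4-LKO array, 10.56 on the WT array, difference -0.07), and Sdr42e1 (6.97 on the E4bp4-LKO array, 6.81 on the WT array, difference 0.16). On the E4bp4-LKO array 3 of the 6 family genes above the floor, all of them described above, passed 1.5-fold upward and none downward. Among all genes above the floor 1.51% passed it upward and 2.06% downward. The 3 are Hsd3b5, Hsd3b2 and Hsd3b3, chosen with this difference in view, so nothing is read from this count.

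Hsd17b6, whose product oxidises androgens and is related to the retinol dehydrogenases, was at 9.37 on the E4bp4-LKO array and at 10.08 on the WT array. This difference of -0.71 (1.63-fold lower) was the lowest of the 9 genes. Hsd17b13 was at 11.23 on the E4bp4-LKO array and 11.50 on the WT array, a difference of -0.28 (1.21-fold lower). Hsd17b2, which oxidises estradiol and testosterone to less active keto forms, was nearly equal, at 9.56 on the E4bp4-LKO array and 9.55 on the WT array (difference 0.006). The 3 enzymes that share the 17β name differed by unlike amounts.

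The wider family list had 8 genes above the floor, of which 6 had a negative difference and 2 a positive one, with a median difference of -0.19. Among all genes above the floor 54.5% were lower, and the median was -0.02. Hsd17b6 was the only one of the 8 past 1.5-fold, against 3.57% of all genes above the floor. Hsd17b11, a lipid droplet enzyme that stands beside Hsd17b13 on chromosome 5, was at 9.09 on the E4bp4-LKO array and 9.32 on the WT array (-0.23), close to the difference of its neighbour. Hsd17b4, a peroxisomal enzyme of fatty acid and bile acid side chain oxidation, differed by -0.20, the fatty acid elongation reductase Hsd17b12 by -0.19 and the cholesterol synthesis reductase Hsd17b7 by -0.05. The mitochondrial Hsd17b10 was higher, at 7.84 on the E4bp4-LKO array and 7.59 on the WT array (0.25). Hsd17b1, Hsd17b3 and Hsd17b14 lay below the floor on both arrays.

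Hsd11b1 was at 8.97 on the E4bp4-LKO array and at 8.80 on the WT array, a difference of 0.16 (1.12-fold). H6pd, which supplies the reduced cofactor for this enzyme in the endoplasmic reticulum, was at 8.72 on the E4bp4-LKO array and 8.79 on the WT array (-0.07). Hsd11b2, the kidney form that inactivates glucocorticoids, was near the floor, at 4.50 on each array. The glucocorticoid receptor gene Nr3c1 was at 8.08 on the E4bp4-LKO array and at 8.13 on the WT array (-0.05).

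None of 9 glucocorticoid-responsive genes passed 1.5-fold, against 3.57% of all genes above the floor, so nothing is read from this count. Their median difference was 0.10, against -0.02 for all genes above the floor. Tsc22d3, known as GILZ, was higher by 0.55 and the phosphatase gene Dusp1 by 0.31. Zbtb16 and Fkbp5, a chaperone gene induced through the same receptor, differed by -0.47 and -0.37. The members of this list thus lay on both sides of 0.

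Akr1c6, which encodes an enzyme of mouse liver that reduces keto groups of androgens, was at 7.60 on the E4bp4-LKO array and at 7.30 on the WT array, a difference of 0.30 (1.24-fold). Its neighbour on chromosome 13, Akr1c20, was at 8.55 on the E4bp4-LKO array and 8.05 on the WT array, with a difference of 0.50. Akr1d1, the 5β-reductase of bile acid synthesis, was at 10.09 on the E4bp4-LKO array and 9.72 on the WT array (0.37). Of the 6 AKR1C and AKR1D genes above the floor, 5 were higher on the E4bp4-LKO array, against 45.5% of all genes above it. None of the 6 reached 1.5-fold, against 3.57% of all genes above the floor. Akr1c14 (0.06) and Akr1c12 (0.11) differed less. Akr1c18, whose product inactivates progesterone, was the one lower gene (-0.36), with an E4bp4-LKO value of 4.18 just under the floor. A probe set that the annotation assigns to both Akr1c13 and Akr1c12 differed by 0.26. Of the 5α-reductases, Srd5a3, which serves dolichol synthesis, was at 6.17 on the E4bp4-LKO array and at 6.41 on the WT array (-0.24).

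Genes of these families stand in clusters, so the 8 protein-coding genes on each side were examined, in the order of the GRCm38.p6 annotation. Around Hsd3b5, 3 of the 6 neighbours above the floor passed 1.5-fold upward and none downward. Among all genes above the floor 1.51% passed it upward and 2.06% downward. The 3 were Hsd3b2, Hsd3b3 and the predicted gene Gm4450. Gm4450 was at 4.72 on the E4bp4-LKO array and at 3.76 on the WT array (difference 0.96). Its WT value was below the floor, so it passed the floor only through its E4bp4-LKO value. Hsd3b2 and Hsd3b3 were chosen with this difference in view, and signals of this cluster may be mixed, so nothing is read from the count. Beyond the cluster, Hao2, a peroxisomal hydroxy acid oxidase, differed by -0.44, Phgdh, of serine synthesis, by -0.36 and Wars2 by 0.09. Hsd3b4 and Gm10681, which lie between Gm4450 and Hsd3b5, had no probe set of their own in the annotation used here.

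Hsd17b6 stands at one end of a row of retinol and androgen dehydrogenase genes on chromosome 10, and these did not share one direction. Rdh9 was at 6.51 on the E4bp4-LKO array and at 7.19 on the WT array (-0.68), a difference close to that of Hsd17b6. Rdh16f2, which lies between them, was at 8.52 on the E4bp4-LKO array and at 7.91 on the WT array (0.61). Sdr9c7, next to Hsd17b6, was higher by 0.33, while Rdh16 (-0.22) and Rdh7 (-0.05) differed less. Past 1.5-fold were 2 of the 12 neighbours above the floor, Rdh16f2 upward and Rdh9 downward. Of all genes above the floor 3.57% passed it in either direction. Around Akr1c6 and Hsd17b13 no neighbour above the floor, of 10 and 6, reached 1.5-fold. The same was found for the 11 around Hsd3b7 and the 12 around Hsd17b2. Of 8 around Hsd11b1, the laminin gene Lamb3 alone did, at -1.08.

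**Figure D3:**
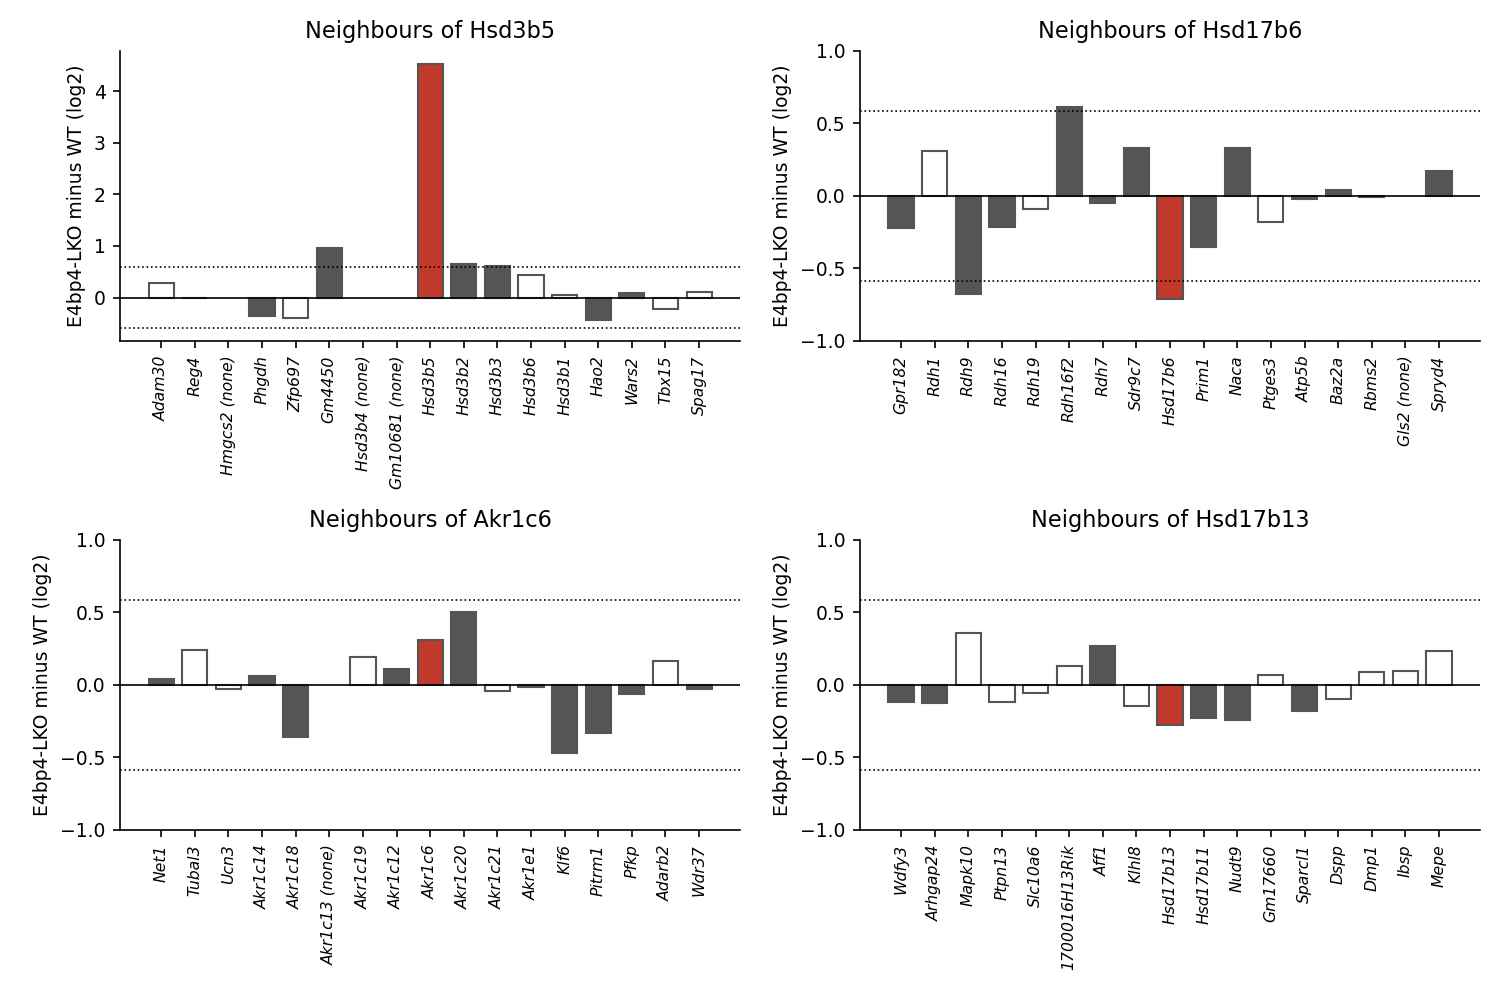
Difference, E4bp4-LKO minus WT (vertical axis, log2), for Hsd3b5, Hsd17b6, Akr1c6 and Hsd17b13 (red) and the 8 protein-coding genes on each side in chromosome order. Filled bars are genes with a mean above the floor, open bars those below it, and genes marked none have no probe set of 1 symbol. Dotted lines mark 1.5-fold, and the vertical scale of the Hsd3b5 panel is wider. Hsd3b5 (4.53), Gm4450 (0.96), Hsd3b2 (0.64) and Hsd3b3 (0.62) are higher, whereas Rdh9 (-0.68) and Rdh16f2 (0.61) differ in opposite directions near Hsd17b6 (-0.71).

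Steroid-metabolising genes outside these families were described from lists also chosen with earlier results known. Of the 9 steroid and bile acid hydroxylases, 7 were higher on the E4bp4-LKO array and none of these reached 1.5-fold. Among all genes above the floor 45.5% were higher, and nothing is read from this contrast. Cyp7a1, which acts before Hsd3b7 in bile acid synthesis, was at 9.42 on the E4bp4-LKO array and at 8.88 on the WT array (0.55). Cyp7b1, which hydroxylates oxysterols and androgens, was higher by 0.44 and Cyp39a1 by 0.43. Cyp46a1, the cholesterol 24-hydroxylase known from brain, was the one gene past 1.5-fold, at 5.23 on the E4bp4-LKO array and at 6.68 on the WT array (-1.44). The 8 bile acid genes that act after Hsd3b7 differed by between -0.20 and 0.37, with a median of 0.09. None passed 1.5-fold, against 3.57% of all genes above the floor. Besides Akr1d1, the farthest from 0 were the racemase gene Amacr (0.23), Hsd17b4 and the conjugating enzyme gene Baat (0.16).

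Conjugation removes steroids by adding sulfate or glucuronic acid. Only 6 of the 16 measured genes of this list were above the floor. Sult2a8, a liver bile acid sulfotransferase, was the one at least 1.5-fold higher, against 1.51% of all genes above the floor. Nothing is read from this count. Sult2a8 was at 10.74 on the E4bp4-LKO array and at 9.98 on the WT array (0.75). The glucuronosyltransferase genes Ugt2b5 (-0.29), Ugt2b34 (-0.15) and Ugt2b1 (0.15) differed less. Of the steroid receptor genes, the estrogen receptor gene Esr1 was at 7.30 on the E4bp4-LKO array and at 6.79 on the WT array (0.51).

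**Figure D4:**
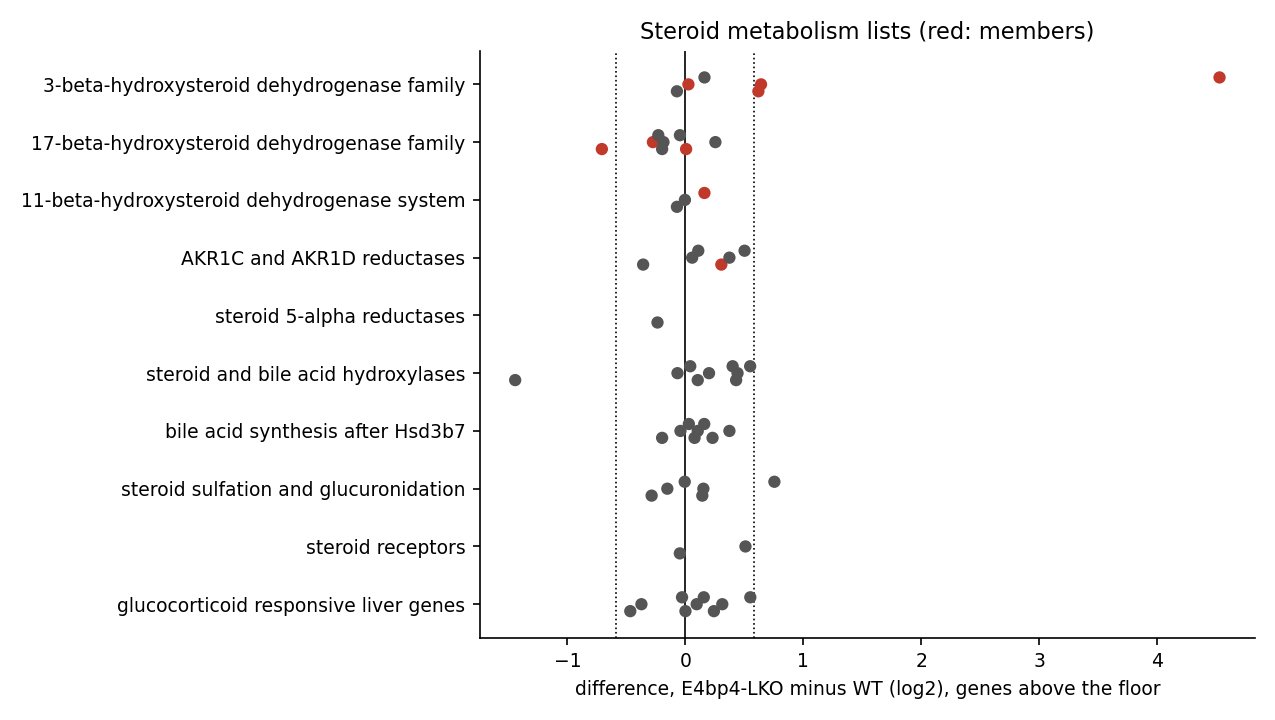
Difference, E4bp4-LKO minus WT (horizontal axis, log2), for each gene above the floor in 10 lists of steroid metabolism and response. Red points are the 9 genes described here, grey points other genes, small vertical offsets only separate the points, and dotted lines mark 1.5-fold. Outside the 4 red points past the lines, only Cyp46a1 (-1.44) and Sult2a8 (0.75) lie beyond 1.5-fold.

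Hsd3b5 is also one of the male-biased liver genes. In that list 7 of 15 genes above the floor passed 1.5-fold upward on the E4bp4-LKO array and 1 passed it downward, against 1.51% upward and 2.06% downward of all genes above the floor. The 7 include Hsd3b5, chosen for its difference, and the list was written with earlier results known, so nothing particular to it is read from these counts or from those of the lists that follow. After Hsd3b5 the farthest from 0 were the transporter gene Slco1a1 (2.14), Cyp4a12b (1.42) and Susd4 (1.31), while Bcl6, which represses female-biased genes in male liver, was the lower one. Of 7 female-biased genes above the floor, 4 passed 1.5-fold downward and 1 upward, with Cyp2b13 at -2.99, Cyp2a4 at -1.38, Cyp3a44 at 1.27 and Cyp2b9 at -1.02. The list of growth hormone signalling and sex-bias regulators had 11 genes above the floor, of which 1 passed 1.5-fold in each direction. Onecut1 (HNF6) was at 7.52 on the E4bp4-LKO array and at 6.48 on the WT array (1.05), and Bcl6 was at 6.22 on the E4bp4-LKO array and at 7.42 on the WT array (-1.20). Stat5b, the mediator of growth hormone pulses, differed by -0.06, and Stat5a and Igf1 by -0.34 and 0.29.

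Markers of other tissues were read beside these values. The 10 hepatocyte markers were all above the floor on both arrays, with differences between -0.04 and 0.30. The farthest from 0 were Cps1 (0.30), Tat (0.16) and Asgr1 (0.14). Of 12 measured genes of adrenal and gonad steroid-making cells, 7 lay below the floor on both arrays, among them Cyp11a1, Cyp11b1, Nr5a1, Mc2r and Hsd3b1, and Cyp21a1 was at 3.69 on the E4bp4-LKO array and at 4.51 on the WT array. Those above it were Cyp17a1 (0.40), Scarb1 (-0.13), Fdx1 (0.07) and Star (0.05). Of 4 adipocyte markers, Adipoq, Lep and Plin1 were below the floor on both arrays, and Retn differed by -0.12. Of 8 skeletal muscle markers above the floor, 6 passed 1.5-fold downward on the E4bp4-LKO array, against 2.06% of all genes above it. The farthest from 0 were Myh2 (-1.83), Atp2a1 (-1.47) and Myh4 (-1.40). Among the 6, Myh4 and Myh1 passed the floor only through their WT values. The linear intensities of all 9 muscle markers summed to 358 on the E4bp4-LKO array and 715 on the WT array. Of 5 keratinising epithelium markers above the floor, 3 passed 1.5-fold upward and 2 downward, against 1.51% and 2.06% of all genes above it. The higher ones, Krt4 (2.95), Krt13 (2.26) and Krtdap (1.76), had WT values below the floor and passed it only through the E4bp4-LKO array. The lower ones were Sprr1a (-2.22) and Ly6d (-1.91), the brightest of the list on both arrays. The sum over the 7 measured was 526 on the E4bp4-LKO array and 1288 on the WT array. What part such other tissue had in the differences of the steroid enzyme genes was not tested. In pooled tissue RNA, fewer cells of a type and less RNA in each cell cannot be told apart.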

How the data were processed

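Liver RNA was measured on 2 arrays, 1 of pooled RNA for each genotype. Per the labels' protocols, biotinylated cDNA was prepared from 400 ng of total RNA. The deposited values are log2 intensities, 1 for each probe set and array. Per the submitters' processing notes, the tools were RMA and R 3.4.0. RMA corrects background, equalises the arrays' distributions and summarises probes, which compresses differences of dim genes. The sources used here name no genome build. The medians of all 41345 probe sets were 3.75 (E4bp4-LKO) and 3.74 (WT). No centring of genes was visible, and the number of arrays limits the precision.

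The platform annotation gave 1 gene symbol to 23521 probe sets, several to 1814 and none to 16010. Probe sets with 1 symbol were averaged for each gene (pandas 2.3.3). The floor was the median of the genes' mean level, and the fold threshold was 1.5. Between the probe sets of the 555 genes above the floor with 2 of them, the differences had a standard deviation of 0.22, a measure of probe disagreement only. Promoters were aligned locally with Biopython 1.88. The counting was tested on simulated data. Named are the 10 genes, Nfil3, all measured genes above the floor of the 5 family lists and up to 4 genes above the floor of each other list with the largest absolute difference (3 for markers). Named in addition, after their values were seen, were chromosome neighbours, genes below the floor, genes with no value, Stat5b, Star, Myh1, Krtdap and Ly6d. The genes and lists were chosen with earlier results of these data known. With 1 array for each genotype, no test was possible. Alternatives varied the choice of probe sets, the normalization, the floor and the fold threshold.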

Additional observations from a re-analysis of the deposited data

Results flagged for a closer look

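Probe sets with several gene symbols were left out of the comparison of genes. Of those sharing a symbol with the 5 family lists, the one at least 1.5-fold higher on the E4bp4-LKO array was picked out. Its direction was therefore fixed by this choice. The probe set of Akr1c13 and Akr1c12 (0.26) did not reach this mark. The annotation assigns the probe set picked out to Hsd3b4, Gm10681 and Hsd3b5 together. It was at 5.76 on the E4bp4-LKO array and at 4.22 on the WT array, a difference of 1.54 (2.91-fold). It is averaged into Hsd3b5 in the alternatives that include such probe sets. It was listed under 2 probe set identifiers with identical values, which are given here once. Its difference was smaller than the 4.53 of the probe set of Hsd3b5 alone. Which of the 3 genes gave this signal cannot be told apart here.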

How the results depend on the processing

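No paired analysis was possible because each genotype had 1 array. The difference of Hsd3b5 was 2.53 when all probe sets with several symbols were included, which counts the pair of identical values separately, 3.03 when that pair was counted once (an alternative chosen after seeing the data) and 4.25 when values below the floor were raised to it. With a threshold of 2-fold, 1 gene was higher and 0 were lower. The share of all genes past 2-fold was not computed, so nothing is read from this count. The other 85 of 90 values recomputed kept within the probe disagreement of 0.22 or, for counts and percentages, within 1.5 times. Many of these could not move, so their number is no measure of how firm the results are. Each of the 9 genes had 1 probe set, so the brightest probe set and the average were the same. Probe sets with several symbols, and raising values to the floor, changed Hsd3b5 alone among the 9 genes. Centring moved every difference by the same 0.01. A second quantile normalization and removal of a trend on level could move each gene by its own amount. Over the alternatives that recompute values, Hsd3b2 differed by 0.64 to 0.66, Hsd3b3 by 0.62 to 0.64 and Hsd17b6 by -0.73 to -0.70. With a floor at the 75th percentile (6.28) Hsd3b5 itself dropped out, leaving 2 genes higher and 1 lower. Of all genes above that floor 2.81% passed 1.5-fold in either direction, and nothing is read from this count. Hsd3b2 and Hsd3b3 passed the threshold of 0.58 by less than the probe disagreement, as did Hsd17b6.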
